A study of Mus musculus with 2 samples.

Results

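The 4 mouse Hox clusters hold the Hox genes, which were chosen here as the protein-coding genes of the GENCODE annotation whose symbol starts with Hoxa, Hoxb, Hoxc or Hoxd followed by a number. There were 39 of them among 21853 protein-coding genes with a coding transcript. Hoxa had 11, Hoxb had 10, Hoxc had 9 and Hoxd had 9. They were examined by ATAC-seq, in which a transposase cuts and tags accessible DNA, in G1E-ER4 cells. G1E-ER4 is an established mouse erythroid line, derived from embryonic stem cells that lack Gata1, in which a GATA1 fused to an oestrogen receptor domain restores differentiation when estradiol is added. The labels give 50000 cells of this Gata1-restored line for each of the 2 libraries, with strain C57BL/6J and male sex, treated with 17Beta-estradiol at 10 nM for 24 h. They formed 1 group with biological replicates 1 and 2 and no untreated cells, so every value describes this state of this line and none is an effect of estradiol or of GATA1. The labels say no more of the cultures, so the spread between the 2 libraries may be technical. No p-value is given, because there is 1 group and genes within it are not replicates.

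Hox proteins are homeodomain transcription factors that give cells their position along the body axis. In each cluster the genes stand in the order of their paralog groups, from group 1 to group 13, and are transcribed in the same direction, so that group 13 lies at the upstream end and group 1 at the downstream end. Low-numbered groups are used early and towards the head, high-numbered groups later and towards the tail, and silent clusters are typically covered by Polycomb proteins. Blood stem and progenitor cells are known for Hoxa genes such as Hoxa9, used together with the TALE homeodomain cofactor Meis1, and this use declines as blood cells mature.

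The values are peaks as the authors called them, merged where they overlapped into regions. The main list was the authors' conservative list, which keeps peaks found at an irreproducible discovery rate (IDR) of at most 0.05 between the true replicates. It held 20080 regions, and the thresholded lists of library 1 and library 2 alone held 14012 and 15564 regions. A looser replicated list held 46345 regions and an archived replicated list held 157788, with a median region width of 212 bp against 496 bp in the conservative list. Read depth is unknown, and the number of regions does not measure it, because it also depends on the list and its threshold. Signal is the authors' enrichment value of a peak and is used only to rank regions within a list. A gene had a promoter region where a region reached within 1 kb of a start site of any of its coding transcripts. As a check of the labelled cell type, 11 of 12 erythroid markers had a promoter region in the conservative list, and Alas2, the exception, had a region in the replicated and archived lists. None of 12 markers of lymphoid, myeloid, liver, stem and nerve cells had a region in the conservative or replicated list, and the stem cell gene Nanog and the nerve cell gene Rbfox3 had a region in the archived list.

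The 4 cluster windows, each with 50 kb on both sides, held 8 regions of the conservative list, 4 in Hoxb and 4 in Hoxc. The Hoxa and Hoxd windows held 0. The bases around the summits of 5 of the 8 regions follow, because these are part of the accessible DNA on which the results turn. The Hoxc4 promoter region has its summit in an exon and is not printed. Sequences are the plus strand of the RefSeq GRCm38 (mm10) genome, 100 bases to each side of the summit, and the Hoxb13 promoter region was ended at the start of the first exon. Capitals mark the letters of any of 6 motifs on either strand, namely the GATA site AGATAA, its form AGATAG that ends in G, its form TGATAA that starts with T, the form TGATAG with both changes, the ETS core CGGAAG, the MEIS site TGACAG, the RUNX site TGTGGT, the CCAAT box and the CTCF consensus.
Hoxb13 promoter region, chr11:96194148-96194315: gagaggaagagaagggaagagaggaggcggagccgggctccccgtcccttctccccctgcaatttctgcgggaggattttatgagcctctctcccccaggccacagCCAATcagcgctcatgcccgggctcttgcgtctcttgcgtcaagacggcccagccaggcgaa
Hoxb13 distal region 1, chr11:96199824-96200024: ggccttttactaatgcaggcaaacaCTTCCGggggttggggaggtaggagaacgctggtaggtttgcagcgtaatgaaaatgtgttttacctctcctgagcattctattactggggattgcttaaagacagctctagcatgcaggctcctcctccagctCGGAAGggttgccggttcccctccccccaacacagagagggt
Hoxb13 distal region 2, chr11:96203240-96203440: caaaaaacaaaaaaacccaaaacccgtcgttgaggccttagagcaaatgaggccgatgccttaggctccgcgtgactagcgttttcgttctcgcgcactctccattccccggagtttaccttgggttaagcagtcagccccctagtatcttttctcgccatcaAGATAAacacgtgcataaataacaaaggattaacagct
Region inside Hoxc6, chr15:102999282-102999482: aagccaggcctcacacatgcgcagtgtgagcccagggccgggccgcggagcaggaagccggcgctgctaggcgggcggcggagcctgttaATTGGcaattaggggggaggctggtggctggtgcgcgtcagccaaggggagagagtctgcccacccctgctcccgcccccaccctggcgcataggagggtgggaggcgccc
Region inside Hoxc4, chr15:103021125-103021325: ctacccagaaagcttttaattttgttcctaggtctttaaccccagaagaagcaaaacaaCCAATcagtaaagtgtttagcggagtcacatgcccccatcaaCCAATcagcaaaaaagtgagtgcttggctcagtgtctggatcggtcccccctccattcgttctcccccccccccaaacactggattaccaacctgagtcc
At these 8 summits, GATA letters were found in 2 regions, both distal, which is 2 of 5 distal regions against 50.9% of all distal regions of the list. They were found in 0 of 3 promoter regions, against 13% of all promoter regions. CCAAT was found in 5 of the 8 regions, against 29.9% of all regions, and in all 3 promoter regions, against 37.1% of all promoter regions. It was added to the search after the sequences had been read. In the region inside Hoxc4 the 2 CCAAT matches stood 42 bp apart. ETS letters were in 1 region (18.9% of all regions), MEIS in 1 (15.6%), RUNX in 1 (15.3%), and the CTCF consensus in 0 (4.96%). The letters of these motifs do not contain each other, and a match is a description of the letters only.

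Of the 39 Hox genes, 3 had a promoter region in the conservative list, which is 7.69%, against 42.3% of all protein-coding genes. They were Hoxb13, Hoxc10 and Hoxc4, and the other 36 had none. Library 1 alone gave 2 genes, Hoxb13 and Hoxc10, against 38.8% of all genes in that library. Library 2 alone gave the same 3 genes as the conservative list, against 39.9% of all genes. The thresholded list of pooled pseudoreplicates also gave 3, against 42.6% of all genes. The replicated list gave 6 Hox genes by adding Hoxc5, Hoxc6 and Hoxc9, against 46.9% of all genes. The archived list gave 9 by adding Hoxa7, Hoxc8 and Hoxc11, against 54.7% of all genes. No gene of the Hoxd cluster had a promoter region in these 6 lists, and in each of them the Hox share was lower than the share of all genes.

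**Figure D1:**
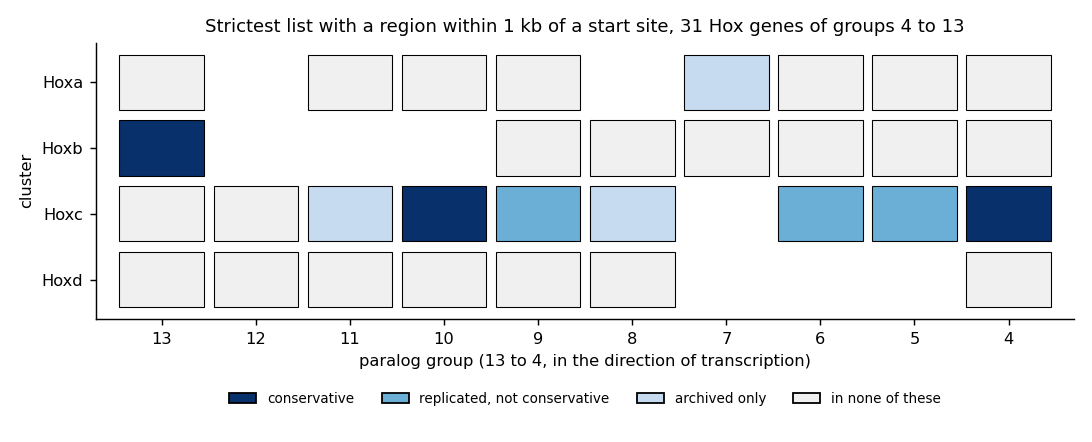
Each square is 1 of the 31 Hox genes of paralog groups 4 to 13, placed by cluster (rows) and paralog group (columns, 13 to 4), and its shade gives the strictest list in which it had a region within 1 kb of a coding start site. The 3 darkest squares are Hoxb13, Hoxc10 and Hoxc4, all genes with a region in the replicated list except Hoxb13 lie in Hoxc, and the Hoxd row has none.

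These counts depend on which transcripts set the promoter. Hoxc5 and Hoxc6 each have noncoding transcripts that start further upstream, and when start sites of all transcripts of a gene were used, 5 Hox genes had a region in the conservative list, against 43.2% of all genes. The 2 added genes were Hoxc5, whose upstream start lies beside the Hoxc10 promoter region, and Hoxc6, whose upstream start lies beside the region inside Hoxc6. This alternative was chosen after those regions had been seen. In the replicated and archived lists the same choice left the counts at 6 and 9.

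Hoxc10, a gene of the lower trunk and hindlimb level, had the strongest region of the 8. It lay upstream of the start site of Hoxc10, within 1 kb of it, had a signal of 19.1, and ranked at percentile 93.2 of the conservative list. Its −log10 p was 38.9 in library 1 and 49.6 in library 2, and it was in the thresholded list of both. Hoxb13, a gene of the tail end of the body and of the prostate, had a region at chr11:96194038-96194391 with its summit 68 bp upstream of its start site. Its signal of 12.2 stood at percentile 62.0, and its −log10 p was 25.2 in library 1 and 34.6 in library 2, again in the thresholded lists of both. Hoxc4, a gene of the neck and upper trunk level that is also used in lymphoid cells, had a region at chr15:103034075-103034724 with its summit 207 bp downstream of the inner of its 2 coding start sites, in an exon outside the coding sequence. Its signal was 9.37, and its −log10 p was 12.8 in library 1 and 25.2 in library 2. It passed the threshold in library 2 but not in library 1, where its IDR was 0.1002. A second Hoxc4 region stood at the outer start site, 28 bp upstream of it, with a −log10 p of 13.6 in library 1 and 5.61 in library 2, and was in the replicated list but not the conservative list. So the inner Hoxc4 start had the larger −log10 p in library 2. In library 1 the values were close, at 12.8 for the inner and 13.6 for the outer start, and neither passed the threshold there.

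The promoters that appeared only in looser lists were weak in both libraries. Hoxc5, a gene of the neck and chest level, had a −log10 p of 5.74 in library 1 and 8.25 in library 2, from separate regions of the replicated list. Hoxc9, a chest-level gene, had 5.38 in library 1 and 5.21 in library 2. Hoxc6, also of the chest level, was not listed at its coding promoter in library 1 and had 10.2 in library 2. Their IDR between the true replicates was 0.513 for Hoxc5, 0.513 for Hoxc9 and 0.269 for Hoxc6, against 0.000357 for Hoxc10 and 0.000863 for Hoxb13. Hoxa7, Hoxc8 and Hoxc11 were listed in neither library's ranked list, and their −log10 p in the archived list was 6.27, 3.64 and 8.396, against 45.3 for Hoxc10 in that list.

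The 4 clusters differed in how many regions they held. Hoxc had 4 regions in the conservative list, 1.85 per 100 kb, 20 in the replicated list, 9.27 per 100 kb, and 51 in the archived list. Those are 2.44, 5.30 and 3.97 times the density of the whole genome in the same lists. Hoxb had 4, 9 and 20 regions, at 1.93, 1.88 and 1.23 times the genome density. Hoxd had 0, 2 and 3 regions and Hoxa had 0, 0 and 2. The archived counts correspond to 0.256 times the genome density in Hoxd and 0.163 times in Hoxa. The genome held 0.758 regions per 100 kb in the conservative list, 1.75 in the replicated and 5.96 in the archived list. Over the 4 windows together, 891.8 kb, the density was 1.18 times that of the genome in the conservative list and 1.99 times in the replicated list. The order Hoxc, Hoxb, Hoxd, Hoxa in density was the same in the replicated and archived lists. Each library alone gave 0 regions in Hoxa and Hoxd, 2 in Hoxb, and 3 in Hoxc for library 1 and 4 for library 2. The 4 of library 2 count the Hoxc4 promoter region in separate parts. With 2 libraries of 1 group there is no test of a difference between clusters.

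**Figure D2:**
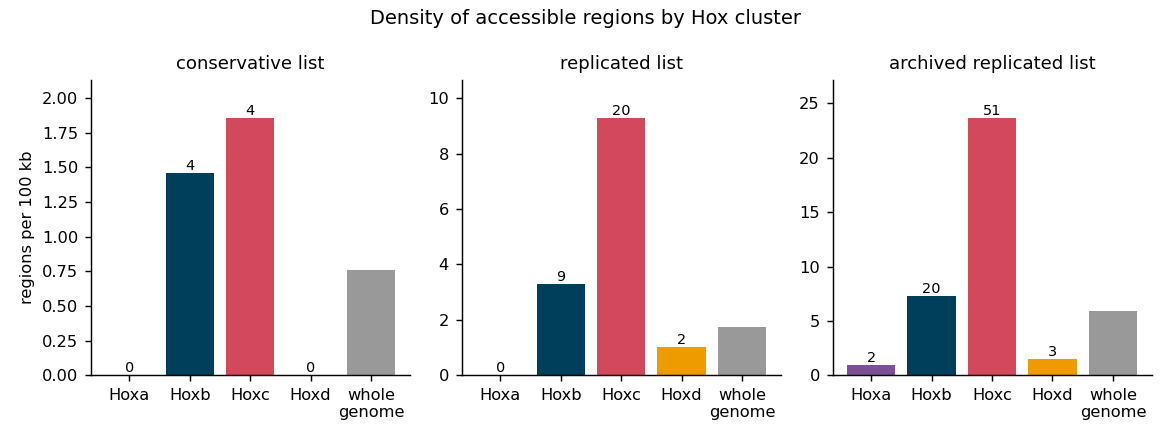
Bars give regions per 100 kb in each cluster window and, at the right, in the whole genome, for 3 lists, each with its own y axis starting at 0. Numbers above the bars are counts of regions. Hoxc stands highest in all 3 panels, with 4, 20 and 51 regions, and Hoxa has 0, 0 and 2.

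In the Hoxb window, regions of the conservative list stood at the Hoxb13 end and in the flank beyond Hoxb1, and not among the closely spaced genes. The Hoxb13 promoter region was followed by 2 more, at chr11:96199666-96200059, 5608 bp from the Hoxb13 start site with a signal of 5.59, and at chr11:96203197-96203762, 9024 bp from it with a signal of 6.54. Their −log10 p was 8.46 and 14.5 in library 1, and 12.1 and 12.6 in library 2, and neither passed the threshold within a single library. The first lay 94 bp from the start of the noncoding gene Gm27898. The fourth region was intergenic, 34.4 kb beyond the Hoxb1 start site, with a signal of 12.6. Its −log10 p was 26.8 in library 1 and 25.2 in library 2, in the thresholded lists of both. Between the third and the fourth lay a stretch of 196.2 kb without a region of the conservative list, which holds the whole run of Hoxb9 to Hoxb1. Such stretches are common, as 73.4% of the genome lay in stretches at least as long in that list. The same stretch was 193.4 kb in the replicated list, where that share was 62.7%. For the longest archived stretch, given next, it was 36.0%. The archived list did hold regions there, the longest stretch without one being 85.3 kb, and those near Hoxb6 and Hoxb4 had signals of 2.61, 3.14 and 4.18, against 14.2 at Hoxb13.

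Within Hoxc, the 4 regions of the conservative list all lay between the first and the last gene, from Hoxc10 to Hoxc4, and none lay at Hoxc13, Hoxc12 or Hoxc11. Besides the Hoxc10 and Hoxc4 promoters there were 2 in introns. The region at chr15:102999199-102999580 lay within introns of Hoxc6 and of the long noncoding transcript of Hoxc5, 8775 bp from the Hoxc8 start site, and had a signal of 8.34. Its −log10 p was 21.1 in library 1 and 32.8 in library 2, in the thresholded lists of both. The region at chr15:103021105-103021395 lay in an intron of Hoxc4, 2291 bp from its outer start site, and had a signal of 9.17. Its −log10 p was 14.8 in library 1 and 16.6 in library 2, and it passed the threshold in library 1 only. The list of pooled pseudoreplicates held 7 Hoxc regions, adding one at chr15:102987470-102987749, 2985 bp upstream of Hoxc8 with a signal of 8.96, one beside the region inside Hoxc6, and the outer Hoxc4 promoter region. The 20 regions of the replicated list in Hoxc comprised 9 with their summit in an intron, 3 in a coding exon, 2 in another exon and 6 between genes.

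**Figure D3:**
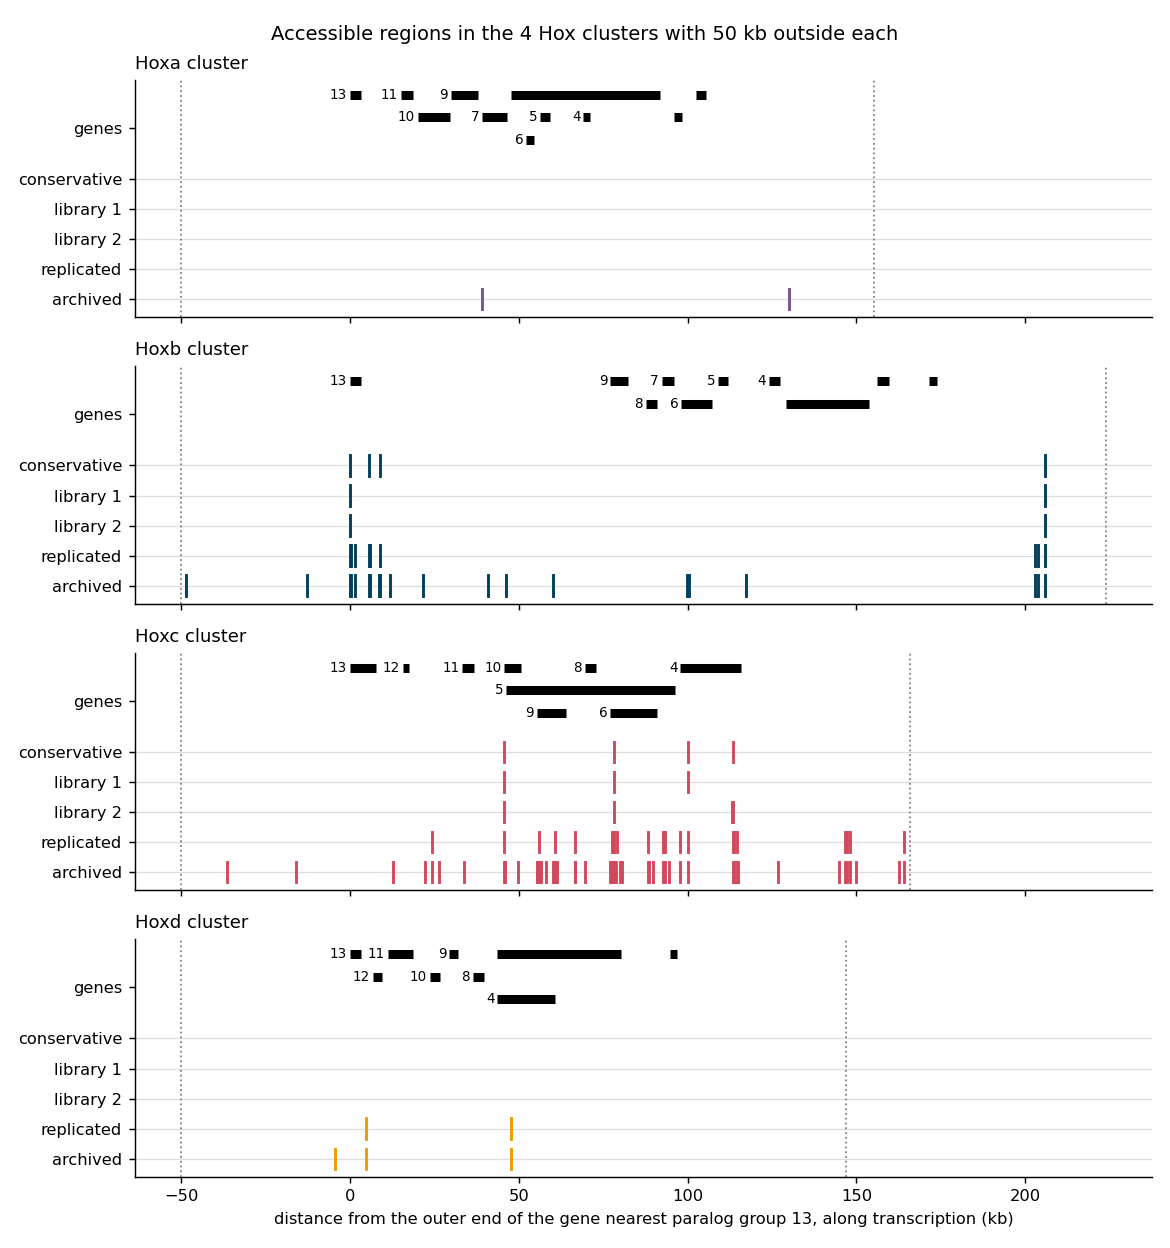
Each panel is 1 cluster drawn in the direction of transcription, with x the distance in kb from the outer end of its group 13 gene; black bars are genes, with the paralog number at the left for groups 4 to 13, coloured ticks are region summits in 5 lists, and dotted lines mark the window. Hoxb shows regions at the group 13 end and in the flank beyond group 1, and none from group 9 to group 1 except in the archived row. Hoxc shows regions from group 10 to group 4 in the conservative list and beyond them in the replicated and archived rows. Hoxa shows 2 ticks, both in the archived row.

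Hoxd had no region in the conservative list and 2 in the replicated list. The stronger of them lay at chr2:74715812-74716156, 4064 bp inside the outermost Hoxd3 transcript and 5 bp from the start of Hoxd3os1, a noncoding gene that was named after its value was seen. It had a signal of 11.8, at percentile 82.1 of the replicated list, and a −log10 p of 8.85 in library 1 and 23.4 in library 2. It was in the list of pooled pseudoreplicates, but its IDR between the true replicates was 0.238. Its signal exceeded that of 5 of the 8 regions of the conservative list. Its −log10 p in library 2 was 2.64 times that in library 1, while among the 8 conservative regions this ratio was at most 1.97, at Hoxc4. Those 8 were kept by their IDR between the same 2 libraries, so the 2 ratios are not an independent comparison. The other region, at chr2:74673062-74673291, 1856 bp upstream of Hoxd12, was listed in neither library's own ranked list.

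Hoxa lay within 613.5 kb that held no region of the conservative list, from 142.4 kb before its first base to 365.8 kb past its last base on chromosome 6. In the replicated list this stretch was 490.6 kb. The median stretch without a region was 23.0 kb genome-wide, but long stretches are common by length: 56.5% of the genome lay in stretches at least as long as that around Hoxa. In the replicated list that share was 44.6%. The archived list put 2 regions in the Hoxa window, at Hoxa7 with a signal of 4.70 and outside the downstream end of the cluster with a signal of 3.14. The longest stretch at Hoxa without an archived region was 202.6 kb. In that list 16.6% of the genome lay in stretches at least as long. Hoxa9 and Hoxa10, the Hoxa genes best known from blood progenitors, had no promoter region in any of the 6 lists. Their nearest conservative regions were 213.0 kb from the Hoxa9 start site and 221.8 kb from that of Hoxa10.

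The distance from Hox genes to accessible regions differed between the clusters. In the conservative list, 27 of 39 Hox genes had no region within 50 kb of the gene body, against 30.4% of all genes. In the replicated list there were 17, against 20.8% of all genes. In the archived list 0 Hox genes were without a region, against 6.97% of all genes, but the median number within 50 kb was 3 for Hox genes, against 12 for all genes. From the start site to the nearest conservative region, the median was 9.64 kb for Hoxc genes, 72.9 kb for Hoxb, 98.4 kb for Hoxd and 195.6 kb for Hoxa. The nearest for any Hoxd gene was 62.5 kb from the start site of Hoxd1. Genes of 1 cluster share their surroundings, so these distances are not independent of each other.

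The called genes lay in paralog groups 4 to 13. Groups 1, 2 and 3, with 3, 2 and 3 genes, had no promoter region in the conservative, replicated or archived list. In the conservative list, 1 of 12 genes of groups 1 to 4 had a promoter region, which was Hoxc4. Groups 5 to 8 had 0 of 11 and groups 9 to 13 had 2 of 16, against 42.3% of all genes in that list. In the replicated list the counts were 1, 2 and 3, against 46.9% of all genes. In the archived list they were 1, 4 and 4, against 54.7%. The 3 conservative genes belong to paralog groups 4, 10 and 13, and none of their paralogs in other clusters had a promoter region in the conservative, replicated or archived list. These groups hold only 4, 3 and 4 genes, and 7.69% of all Hox genes were called in the conservative list. With so few called, the absences do not set groups 1 to 3 or these paralogs apart from other Hox genes. Only some noncoding genes of the clusters, chosen by name, were counted. Among them, Hotair, which lies between Hoxc12 and Hoxc11, had a promoter region in the archived list only. Mir615, in an intron of Hoxc5, had one in the replicated and archived lists. Hotairm1, Hottip, Mir10a, Mir10b, Mir196a-1, Mir196a-2 and Mir196b had none in the conservative, replicated, archived or either library's list. Other noncoding genes do start beside regions of stricter lists. A conservative summit lay 94 bp from the start of Gm27898, and a replicated summit lay 5 bp from that of Hoxd3os1.

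The libraries were compared over the regions. Of the 8 conservative regions, 4 were in the thresholded lists of both libraries, which is 50%, against 60.7% of the whole conservative list. Of the rest, 1 was in the list of library 1 only, 1 in that of library 2 only and 2 in neither. All 8 were in the looser pseudoreplicated lists of both libraries. All 5 cluster regions that library 1 called alone, and all 6 that library 2 called alone, were in the conservative list. The same share over each library's whole list was not counted, so these counts do not set the Hox regions apart. The library 2 regions at chr15:103034061-103034402 and chr15:103034454-103034724 both overlapped the same conservative region, the Hoxc4 promoter region. Of the 31 regions of the replicated list, 16 were in the pseudoreplicated lists of both libraries, 4 in library 1 only, 4 in library 2 only and 7 in neither. Shares over the whole lists were not counted for the pseudoreplicated lists. Whether these counts are usual for the lists is therefore not known here. The 31 regions had a median signal of 5.03, against 6.32 for the whole replicated list, and the 8 conservative regions ran from percentile 5.95 to 93.2 of their own list.

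**Figure D4:**
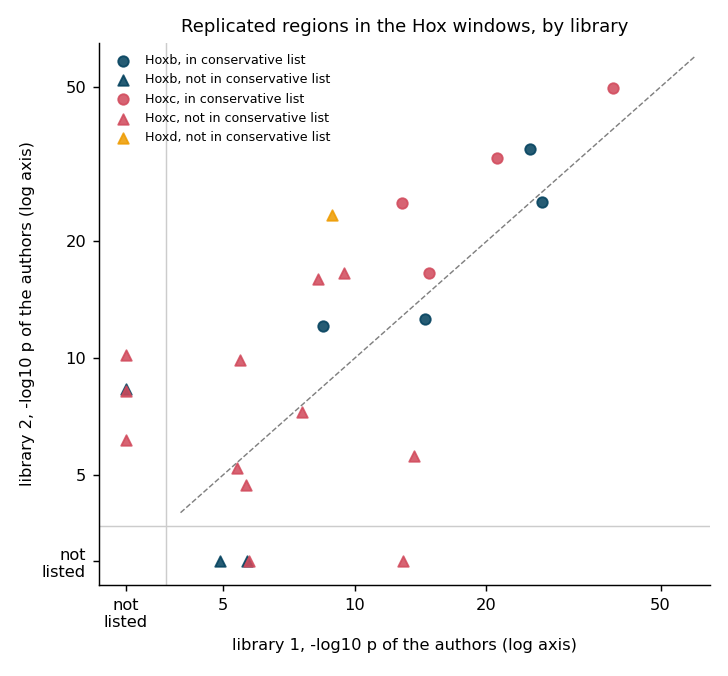
Each point is a region of the replicated list in a Hox window, with its −log10 p in library 1 (x) and library 2 (y), as the authors gave it in each library's own ranked list, on log axes; the band at the left and bottom holds regions listed in only 1 library, and the dashed line marks equal values. The 7 regions listed in neither library are not drawn. The conservative regions (circles) range from 8.46 and 12.1, at the first distal region of Hoxb13, to 38.9 and 49.6 at Hoxc10, and the Hoxd region, a triangle, lies at 8.85 and 23.4.

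CpG-rich promoters are known to be accessible in many cell types, so the Hox promoters were set beside genes of like composition. The CpG ratio is the observed over the expected number of CG pairs within 500 bp on each side of a start site, taken at the coding start site where it was highest, and 0.6 or more was called CpG-rich. By this measure 28 of 39 Hox promoters were CpG-rich, 71.8%, against 51.4% of all genes. All 11 Hoxa genes were, 5 of 10 in Hoxb, 5 of 9 in Hoxc and 7 of 9 in Hoxd. Of the 28 CpG-rich Hox genes, 0 had a promoter region in the conservative list, against 69.5% of all CpG-rich genes. In the replicated list 1 did, Hoxc9, against 73.9%, and in the archived list 4 did, Hoxa7, Hoxc8, Hoxc9 and Hoxc11, against 78.5%. By this measure at the start site, the 3 called in the conservative list were among the 11 less CpG-rich Hox genes. Their ratios were 0.594 at Hoxc10, 0.450 at Hoxb13 and 0.412 at Hoxc4. That is 27.3% of the 11, against 13.5% of all genes with a ratio under 0.6. This background is not of like composition. No Hox gene had a ratio under 0.3, where 1.3% to 5.7% of all genes were called, by bins of 0.1. From 0.3 to 0.4, 0 of 2 Hox genes were called, against 12.9% of all genes. From 0.4 to 0.5 it was 2 of 5, against 23.0%, and from 0.5 to 0.6 it was 1 of 4, against 45.7%. The Hox share was thus higher only in the middle of these bins, on few genes. Hoxc10 stood just under the limit of 0.6, as did Hoxd4 at 0.585 and Hoxd12 at 0.583, while Hoxa3 stood just over it at 0.629. The low ratios of the 3 called genes hold for the window at the start site only. In the narrower window around the summit, as used for the motifs, their promoter regions had higher ratios. These were 0.931 at Hoxc10, 0.72 at Hoxb13 and 0.758 at Hoxc4. No share of all genes is given for that window, so these ratios were not set beside a background.

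**Figure D5:**
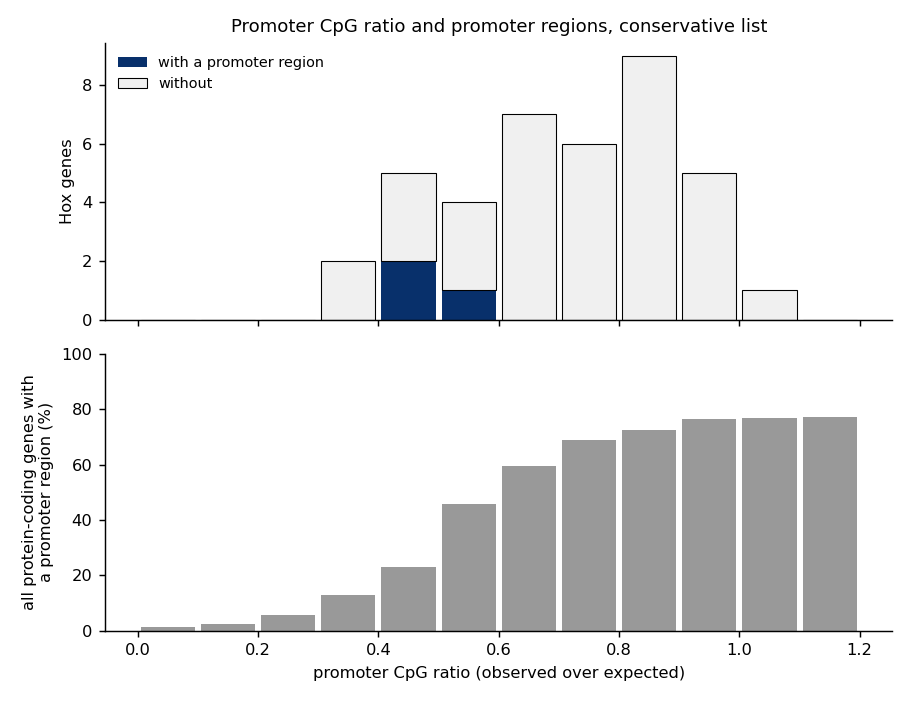
The upper panel counts Hox genes by promoter CpG ratio, in bins of 0.1, split into those with (dark) and without (pale) a promoter region in the conservative list; the lower panel gives the percent of all protein-coding genes with a promoter region in the same bins. The Hox genes with a region lie below 0.6. In the bin from 0.4 to 0.5, 2 of 5 Hox genes have one, against 23.0% of all genes, and in the bin from 0.8 to 0.9 none of 9 has one, against 72.7%.

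Other genes of the pathway were read from lists chosen by family or role. Of the 9 TALE homeodomain cofactors that bind DNA with Hox proteins, 5 had a promoter region in the conservative list. They were Meis1, Pbx2, Pbx3, Pbx4 and Pknox1. Meis1 had a −log10 p of 29.7 in library 1 and 45.8 in library 2, and Pknox1 had 49.6 in library 1 and 69.3 in library 2. Meis2, Meis3 and Pknox2 had none in the conservative, replicated or archived list. Of 15 regulators of Hox genes, 9 had one. These were the activating Trithorax-side genes Kmt2a, Men1, Dot1l, Psip1 and Kat6a, the Polycomb genes Ring1, Rnf2 and Phc1, and the insulator factor Ctcf. The homeobox activators Cdx1, Cdx2 and Cdx4 had none, nor did the Polycomb genes Cbx2, Bmi1 and Pcgf2, although Bmi1 had one in the replicated list. Library 1 alone gave 5 of the 15, 33.3% against 38.8% of all genes in that list, and library 2 alone gave 6, 40% against 39.9%. In the conservative list the share was 55.6% for TALE cofactors and 60% for regulators, against 42.3% of all genes. But 7 of the 9 cofactors and 14 of the 15 regulators were CpG-rich. Of all CpG-rich genes 69.5% had a promoter region in that list, which is above both shares. The share of regulators was also not above that of all genes in library 1.

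Other developmental homeobox and paired-box families were also mostly without a promoter region. Of 49 genes whose symbols start like Dlx1, Irx1, Lhx1, Nkx2-1, Pax1 and Six4, 7 had one in the conservative list, 14.3%, against 42.3% of all genes. Of the 49, 40 were CpG-rich, and 69.5% of all CpG-rich genes had one in that list. Among the 7 were Dlx1, Pax3, Pax6, Pax9, Six4 and Six5. None of 6 Irx, 8 Lhx or 14 Nkx genes had one. Pax9 had a −log10 p of 93.6 in library 1 and 86.2 in library 2, and Six5 had 78.8 in library 1 and 94.1 in library 2, both larger than any Hox region in the same libraries. The protein-coding neighbours within the windows, 5730596B20Rik and Gm28308 at Hoxa and Evx2 beside Hoxd13, had none in the conservative, replicated or archived list. That the Hox share of 7.69% differs from the 14.3% of the other families was not tested.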

How the data were processed

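ATAC-seq was deposited for 2 libraries of estradiol-treated G1E-ER4 cells as peak lists, on mm10 per the labels. Aligner, peak caller, handling of transposase offsets and versions were not given in the sources used here. The authors deposited a signal (enrichment) and a −log10 p for each peak, and in the ranked lists a score that is −log10 of the global irreproducible discovery rate. The conservative, pooled and replicated lists rest on both libraries, per the deposited file notes, which also name an exclusion list among the inputs and mark 1 replicated list as archived. Each library has its own lists. In the ranked list of true replicates, 2 per-replicate columns were not used, because nothing ties them to a library by name.

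Overlapping peaks were merged into a region that took the summit of its strongest peak. Regions of 2 lists were shared where they overlapped by at least 50% of the shorter. Start sites came from GENCODE M21 and bases from RefSeq GRCm38. Windows ran 50 kb beyond the outermost Hox genes, promoters 1 kb around coding start sites, and motifs were searched in 201 bp around summits. The CTCF consensus has 12 positions. Python 3.11.15, numpy 2.4.6, pandas 2.3.3 and matplotlib 3.10.9 were used, and the functions for merging, overlap and promoter calls were tested on simulated data. All Hox genes were named, with every conservative region in the windows, and of looser lists those at Hox promoters and the strongest per cluster. The Hox genes and the other lists were chosen with earlier results of these data known. No test was run. Some genes and sequences are not reported here. The alternatives were the other lists, each library alone, stronger regions only, other windows, other start sites and other overlaps.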

Additional observations from a re-analysis of the deposited data

How the results depend on the processing

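Of 135 alternatives, 95 gave counts within 1.5 times those reported. These include alternatives that gave 0 where 0 was reported, as in the Hoxa and Hoxd windows, the protein-coding neighbours and the CTCF consensus. Against 3 Hox genes with a promoter region, the replicated list gave 6, the archived list 9, the pooled pseudoreplicated list 6 and start sites of all transcripts 5. With 1 start site per gene there were 4, Hoxb13, Hoxc10, Hoxc5 and Hoxc6, so Hoxc4 left and 2 genes came in. Against 8 regions in the windows, the replicated and pooled pseudoreplicated lists gave 31 each, the archived list 76, regions with signal at or above the median 3 and windows of 100 kb 14. By cluster in the archived list there were 2 in Hoxa, 20 in Hoxb, 51 in Hoxc and 3 in Hoxd. The replicated list gave 9 in Hoxb, 20 in Hoxc and 2 in Hoxd, and the pooled pseudoreplicated list 8, 21 and 2. The thresholded list of pooled pseudoreplicates gave 7 in Hoxc and 1 in Hoxd. Strong regions alone were 2 in Hoxb and 1 in Hoxc, and windows of 100 kb held 4 in Hoxd. Promoter regions numbered 10 in the replicated, 19 in the archived and 9 in the pooled pseudoreplicated list, and 6 with windows of 100 kb, against 3. Regions in the lists of both libraries were 8 in place of 4 with the pseudoreplicated lists. Of the other homeobox genes, 13 were called in the archived list and 4 with 1 start site per gene, against 7, and regulators numbered 3 with strong regions only, against 9. In a narrower window around the summit GATA was in 1 region, ETS in 0 and RUNX in 0, and in a wider window ETS was in 2.

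Leaving out a library left 5 to 6 regions in the windows, 2 in Hoxb either way, 3 to 4 in Hoxc and 0 in Hoxa and Hoxd. The higher counts, without replicate 1, hold the Hoxc4 promoter region in separate parts. Leaving out a library left 2 to 3 Hox genes with a promoter region, Hoxc4 being lost without replicate 2, and 5 to 6 regulators. No paired analysis was possible because there was 1 group.

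Read depth is unknown, so a closed promoter cannot be told apart from one below detection. Windows of few regions turn on single peaks. The looser lists admit weaker peaks, and the archived list holds the most regions at Hox promoters; the cause of the difference between lists was not tested.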
